A study of Mus musculus with 4 samples.

Results

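Genes for the last steps of carbohydrate digestion and for sugar uptake were described in the small intestine of mice lacking HNF4 in the gut epithelium. The members were chosen by name: the disaccharidases Lct, Sis and Treh, the sodium-coupled transporters Slc5a1, Slc5a4a and Slc5a4b, the facilitative transporters Slc2a2 and Slc2a5, and the fructose kinase Khk. Every probe set that the platform annotation assigned to exactly 1 of these symbols was taken, whatever its values, which gave 9 probe sets of 8 genes among 22626 probe sets of 12393 named genes. Slc5a1 had 2 probe sets and the other 7 genes had 1 each. Sis, the sucrase-isomaltase gene, matched no probe set by symbol or by Entrez identifier, so no value of it is given.

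HNF4 is a nuclear receptor of liver and gut epithelium, and the comparison asks which transcripts depend on it in the intestine. There were 4 mice, each 1 month old, and 1 Affymetrix array of total RNA from the small intestine per mouse. Both null animals, 1 male and 1 female, carried HNF4loxp/- and villin cre, which recombines loxP sites in the intestinal epithelium. The female control was HNF4LoxP/+ with Villin Cre, so that it carried Cre and a floxed allele, and the male control was HNF4LoxP/- with no Cre, so that it carried a minus allele as both null animals did. A floxed allele was thus common to all 4 mice. Cre in the controls cannot be told apart from sex, and the labels give neither the region of the small intestine nor the HNF4 paralogue. Nothing in the labels says whether animals of different groups were littermates. The p-values refer to these mice only, and the test used draws the variance of each probe set partly from the other probe sets.

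Starch and milk sugar are cut to single sugars by enzymes of the enterocyte brush border, the microvillus surface of absorptive cells. Glucose and galactose then enter the cell with sodium through SGLT1, encoded by Slc5a1, fructose enters through GLUT5, encoded by Slc2a5, and glucose leaves on the blood side through GLUT2, encoded by Slc2a2. Slc5a4a and Slc5a4b encode the mouse SGLT3 proteins, close relatives of SGLT1 that have been described mainly as glucose sensors in the gut. Around weaning lactase normally falls in the rodent intestine, while sucrase and trehalase rise. At the age studied this switch is usually finished or nearly so.

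The 4 arrays had median deposited intensities from 43.2 to 53.3, in arbitrary linear units, and 1.42% to 2.46% of their values lay below 0. The deposited values carry no detection calls, so background was gauged from probe sets of the Y-linked genes Kdm5d, Uty and Eif2s3y in the females and of Xist in the males, which reached at most 34.4. Hnf4a transcript had differences of 0.08 to 0.32 on its 4 probe sets, null minus control as log2: the brightest read 1136 in the male null, 1025 in the female null, 1141 in the female control and 731 in the male control, a difference of 0.23 (SE 0.22; adjusted p 1 in limma). The position of these probe sets relative to the deleted part is not known here, and they do not check the null labels.

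The upstream sequence is shown for the 3 genes whose null arrays both read below both controls. These are the 250 bases before the annotated start, 5′ to 3′ on the gene's strand, from RefSeq (GRCm38.p6): chr10:76111019-76111268 on the minus strand, chr10:76147201-76147450 on the plus strand and chr9:44672983-44673232 on the plus strand. Capitals mark exact matches, on either strand, to 5 short motifs: CAAAGTC for HNF4, AGGTCA for nuclear receptors in general, GTTAAT for HNF1, TTTATG for CDX and AGATAA for GATA factors.
Slc5a4b: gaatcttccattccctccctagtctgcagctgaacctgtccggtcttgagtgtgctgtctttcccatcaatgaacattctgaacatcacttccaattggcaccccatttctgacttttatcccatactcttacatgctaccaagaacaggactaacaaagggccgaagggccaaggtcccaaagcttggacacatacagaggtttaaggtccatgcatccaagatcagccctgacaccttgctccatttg
Slc5a4a: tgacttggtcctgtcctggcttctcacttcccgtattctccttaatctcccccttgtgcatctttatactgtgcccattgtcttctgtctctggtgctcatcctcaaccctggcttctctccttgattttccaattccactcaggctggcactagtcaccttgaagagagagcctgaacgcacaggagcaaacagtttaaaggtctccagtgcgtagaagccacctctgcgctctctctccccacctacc
Treh: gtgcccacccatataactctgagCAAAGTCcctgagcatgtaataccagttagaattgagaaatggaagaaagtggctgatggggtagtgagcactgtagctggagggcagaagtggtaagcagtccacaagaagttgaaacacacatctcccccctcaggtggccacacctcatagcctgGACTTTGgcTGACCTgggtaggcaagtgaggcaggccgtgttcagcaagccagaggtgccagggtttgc
In these windows Treh had the HNF4 letters at 2 places, with the first base 227 and 69 bases before the start. On the other strand the nearer match reads AGGTCAGCCAAAGTC, with AGGTCA 2 bases before the HNF4 letters. The HNF4 motif was in 1 of 9 member windows, that of Treh, and in 3.84% of 32851 windows of the same length. Windows that held it 2 or more times numbered 28 (0.0852%), a count that was not planned. Whether HNF4 binds at these letters was not tested. Neither Slc5a4b nor Slc5a4a had any of the 5 motifs in this window, which says only that these letters are not there. Elsewhere among the members AGGTCA was also before Slc2a2 (14.0% of all windows), GTTAAT before Sis and Khk (6.43%), TTTATG before Lct and Sis (10.8%) and AGATAA at 2 places before Lct (9.99%). Slc5a4b and Slc5a4a lie next to each other on chromosome 10 and point away from each other. Their annotated starts are 36433 bases apart, and the table has no protein-coding gene between them. The longest run the 2 starts share, sought after their values were known, is TGATCATTAA (10 bases), which begins 9 and 6 bases into the annotated transcripts of Slc5a4b and Slc5a4a. It occurred in 12 of 32851 windows of 300 bases around a start (0.0365%). The run was picked because both starts hold it, so this share does not measure how unusual a shared run is. Only runs read in the same direction on the 2 gene strands were sought.

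Across the family, the 2 SGLT3 genes had the largest differences, and Sis was not measured. Slc5a4b was 2.42-fold lower and Slc5a4a 1.97-fold lower in the null animals, without passing the threshold over all probe sets. Lct, Slc5a1, Slc2a2, Slc2a5 and Khk differed by at most 1.21-fold, and Treh by 1.3-fold. None of the 9 probe sets passed an adjusted p of 0.05 in limma's moderated test (0.0126% of the 15838 probe sets tested passed), and each had an adjusted p of 1. At an unadjusted p under 0.05 there were 2 of 9, Slc5a4b and Slc5a4a, where 3.03% of all probe sets had such a p. All 9 passed the filter on dim probe sets, and the lowest value of any of them on any array was 78.1.

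**Figure D1:**
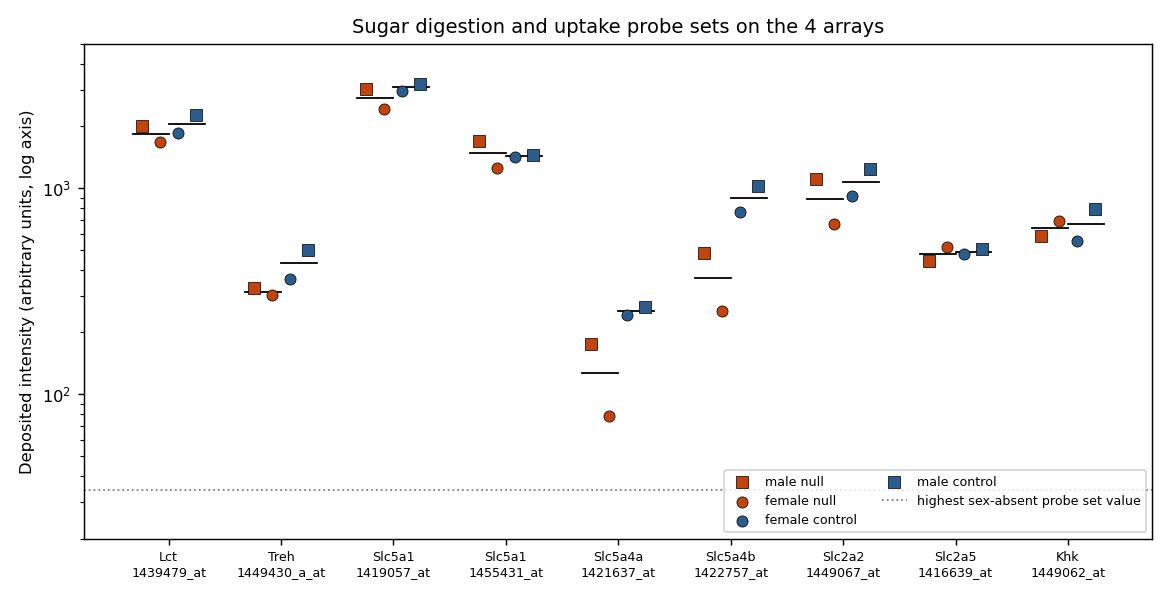
Deposited intensity (log axis) of the 9 probe sets on each array; squares are males, circles females, red null, blue control, black bars the group means, and the dotted line at 34.4 the highest value of a Y-linked or Xist probe set in the sex that lacks it. For Slc5a4a, Slc5a4b and Treh both red points lie below both blue points, and for the other 6 probe sets the groups overlap.

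Slc5a4b had deposited intensities of 482 in the male null animal, 253 in the female null, 762 in the female control and 1027 in the male control. Both null animals were below both controls, and the female null animal was the lowest of the 4. On the scale of log2(intensity + 16) after quantile normalization, used for all differences below, the null mean was 8.51 ± 0.70 and the control mean 9.79 ± 0.31 (SD, 2 animals per group). The difference of −1.27 (SE 0.33, 95% interval −2.07 to −0.47) had an unadjusted p of 0.00736 and an adjusted p of 1 in limma. In terms of fold this interval runs from 1.39 to 4.21. It ranked 65th by p among all probe sets tested, and 0.17% of them had a difference as low or lower. Within the sexes the difference was −1.0 in the males and −1.54 in the females. With sex as a block the same difference had a standard error of 0.18. It passed there, at an adjusted p of 0.0212 in limma, in a fit where 0.183% of probe sets passed. That fit has fewer residual degrees of freedom than the main one, so its standard error rests more on the other probe sets. Over all 13 alternatives the adjusted p ran from 0.0212 to 1 and the difference from −1.74, without the male null animal, to −0.79, without the female null.

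Slc5a4a read 175 in the male null animal, 78.1 in the female null, 242 in the female control and 266 in the male control. The controls lay close together, and the null animals lay below them and apart from each other. The means were 7.08 ± 0.86 and 8.06 ± 0.12 (SD, 2 animals per group), null before control, and the difference was −0.98 (SE 0.39, 95% interval −1.92 to −0.05; unadjusted p 0.0421 and adjusted p 1 in limma). The male pair differed by −0.46 and the female pair by −1.50, so most of the difference came from the female null animal: it was −0.37 without that animal and −1.58 without the male null. With sex as a block the adjusted p was 0.388 in limma. The order of the 4 arrays was the same for Slc5a4a as for Slc5a4b. Letters of the probes were not used here, so whether either probe set also detects the transcript of the neighbouring paralogue was not tested, and the 2 results may not be separate measurements.

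Slc5a1, the main glucose and galactose carrier of the brush border, had 3024 in the male null and 2417 in the female null, with 2973 and 3216 in the female and male controls, on probe set 1419057_at. The groups overlapped, and the difference was −0.17 (SE 0.12, 95% interval −0.45 to 0.12). Its other probe set, 1455431_at, read 1701 in the male null and 1251 in the female null, with 1418 and 1442 in the female and male controls, and the 2 controls lay between the 2 null animals. That difference was 0.055 (SE 0.16, 95% interval −0.32 to 0.43), and it was −0.14 without the male null. The 2 probe sets thus had opposite signs, and both intervals include 0. Their lower bounds correspond to 1.37-fold and 1.25-fold lower in the null animals. In this fit the data bound any loss of Slc5a1 transcript more tightly than that of the SGLT3 genes. These bounds depend on the processing. The standard errors of 1419057_at and 1455431_at became 0.21 and 0.22 without an intensity trend in the prior. With median scaling they were 0.26 and 0.27.

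Slc2a2, the glucose and fructose carrier of the basolateral membrane, read 1112 in the male null animal, 667 in the female null, 914 in the female control and 1234 in the male control. The female null animal was the lowest and the male null animal lay between the controls. The difference of −0.28 (SE 0.26, 95% interval −0.91 to 0.36) was −0.14 in the males and −0.42 in the females. Leaving out single arrays moved it: the value became 0.080 without the female null, −0.064 without the male control and −0.62 without the male null. Slc2a5, the fructose carrier of the brush border, had the narrowest span of deposited values among the members, with 443 in the male null, 517 in the female null, 479 in the female control and 506 in the male control. Both controls lay between the null animals, the means were 8.97 and 8.98, and the 95% interval ran from −0.41 to 0.40. Khk, the ketohexokinase that takes up fructose into metabolism by phosphorylating it, read 587 in the male null, 695 in the female null, 556 in the female control and 790.2 in the male control. Here the null animals lay between the controls, the reverse of Slc2a5, with a difference of −0.018 (SE 0.22, 95% interval −0.54 to 0.50).

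Lct, the lactase gene, read 1997 in the male null animal, 1665 in the female null, 1847 in the female control and 2253 in the male control. In each sex the null animal was the lower one, by −0.16 in the males and −0.07 in the females, but the male null animal lay above the female control. The difference over the 4 arrays was −0.12 (SE 0.14, 95% interval −0.45 to 0.22), and without the male control it was 0.022. Treh, the trehalase gene, read 328 in the male null, 303 in the female null, 362 in the female control and 502 in the male control. Both null animals were below both controls, and the male control stood above the other 3 arrays. The difference of −0.38 (SE 0.23, 95% interval −0.93 to 0.16) had an unadjusted p of 0.14 and an adjusted p of 1 in limma, and it was −0.13 without the male control. These 2 disaccharidases change in opposite directions at weaning in normal development, and here the interval of each includes 0.

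**Figure D2:**
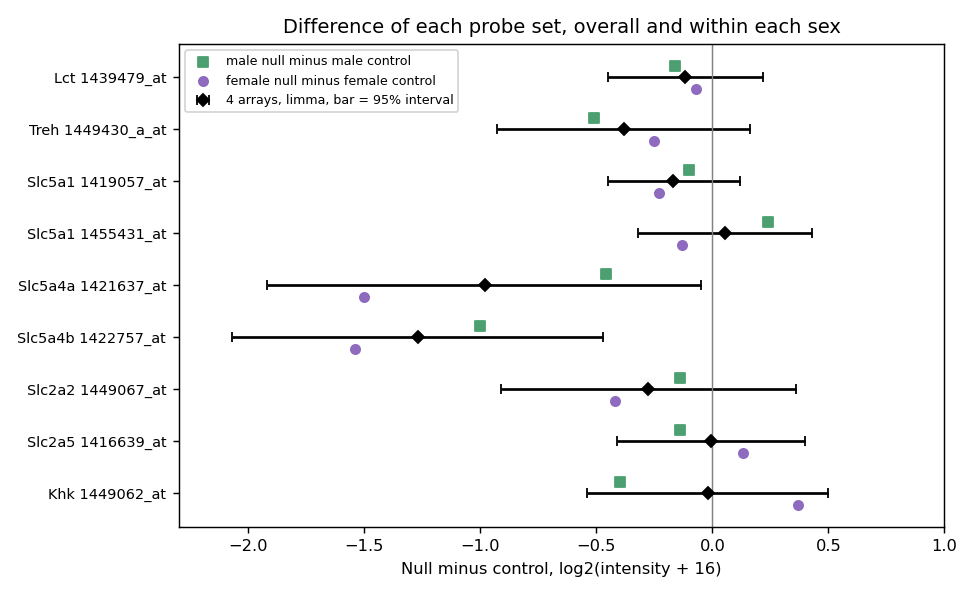
Null minus control on the log2(intensity + 16) scale for each probe set: black diamonds with 95% intervals from limma over 4 arrays, green squares the male pair and purple circles the female pair. Only the intervals of Slc5a4a (−1.92 to −0.05) and Slc5a4b (−2.07 to −0.47) leave out 0.

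Of the 9 probe sets, 8 had a difference below 0, although median scaling instead of quantile normalization turned those of Slc2a5 and Khk to 0.014 and 0.001, and 52.2% of all probe sets tested had one below 0. In 3 of 9, Slc5a4b, Slc5a4a and Treh, both null arrays were below both controls (16.3% of all probe sets), and in none were both above (13.5%). For Treh the male null and the female control were nearly equal after quantile normalization, at 8.5 and 8.52 on the log2 scale. The difference was below 0 in both sexes for 6 of 9 (25.7% of all probe sets) and had opposite signs in the sexes for 3 of 9 (51.6%). The median over the 9 probe sets was −0.17, against −0.012 over all probe sets tested. Among males alone it was −0.16 and among females −0.23, where all probe sets had −0.035 and 0.005. The order of the arrays differed among the members and did not follow genotype alone. The female null was the lowest array for 7 of 9 probe sets (25.2% of all probe sets) and the male control the highest for 7 of 9 (21.8%).

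**Figure D3:**
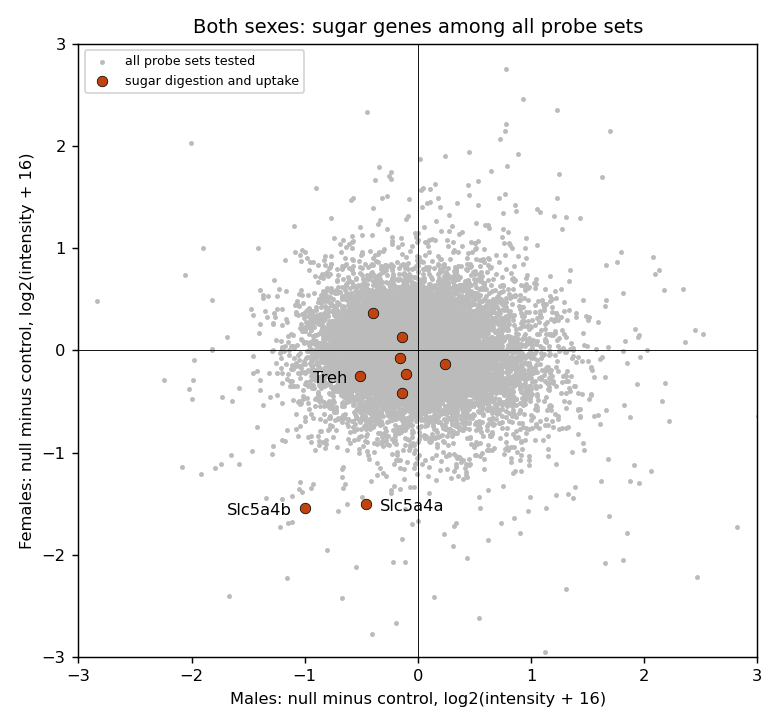
Difference within the male pair (horizontal) against that within the female pair (vertical), log2(intensity + 16); grey points are all 15838 probe sets tested, of which 19 lie beyond the range of 3 shown, and red points are the 9 sugar probe sets. Slc5a4b (−1.0 and −1.54) and Slc5a4a (−0.46 and −1.50) lie at the lower left edge of the cloud, and the other members lie within it.

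The RNA came from intestine whose cell composition was not controlled by a sort, and in such bulk samples fewer cells of a type and less RNA per cell cannot be told apart. All 11 absorptive enterocyte markers on the array, the members not among them, were far above 0 on every array, the lowest being Mep1a at 275. Their median difference was −0.14, with 9 of 11 below 0, and the female pair had −0.25 where the male pair had −0.01. In 6 both null arrays were below both controls (16.3% of all probe sets), and in 1 both were above (13.5%). None passed the adjusted threshold in limma, and 3 had an unadjusted p under 0.05 (3.03% of all probe sets). By p the first were the aminopeptidase Anpep at −0.39 (SE 0.14) and the fatty acid binding protein Fabp1 at −0.21 (SE 0.08). The apolipoprotein gene Apoa4, the third, went the other way at 0.27 (SE 0.11). The summed normalized intensity of the list was 40801 and 39693 for the male and female null and 43742 and 42091 for the female and male control. With the arrays centred on these markers, a setting added after the data were seen, Slc5a4b differed by −1.15 (SE 0.31, adjusted p 0.864 in limma) and Slc5a4a by −0.86 (SE 0.35), while the median over the 9 probe sets was −0.042. This centring moves all probe sets of an array by the same amount, so it does not separate the members from one another, and the part of enterocyte content in their values was not tested.

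Summed markers of the gut wall were highest on the array where most members were lowest. The smooth muscle gene Acta2 did not follow its sum. It read 1564 in the male null, 1448 in the female null, 1520 in the female control and 1387 in the male control. Over 6 smooth muscle genes the summed normalized intensity was 2877 in the female null and 2194 to 2268 on the other 3 arrays, and over 4 fibroblast genes it was 1446 against 765 to 876. In each list all members were above 0 (median 0.20 and 0.22 over the 4 arrays), the smooth muscle median being −0.23 among males and 0.68 among females. The smallest p values were those of Des (0.50, SE 0.23) and Actg2 (0.46, SE 0.56) for muscle and Col1a2 (0.41, SE 0.26) and Dcn (0.27, SE 0.19) for fibroblasts. No marker of either list was at 0, the lowest being Cnn1 at 51.3 and Col1a1 at 39.4. General epithelial genes had a median of −0.16 over 8 genes, 7 of them below 0, with Krt20 at −0.36 (SE 0.12) and Krt19 at −0.27 (SE 0.11), and their sums were 16389 and 15272 for the male and female null and 18624 and 17148 for the female and male control. The part of these shifts in the values of the members was not tested.

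Enzymes that handle sugars inside the cell were followed next. Of 16 genes listed for fructose, glucose and galactose metabolism, 10 were on the array and all were tested, with 3 above 0, 7 below 0 and 0 past the adjusted threshold in limma (0 at an unadjusted p under 0.05), at a median of −0.11. Tkfc, the triokinase that follows Khk in the breakdown of fructose, read 205 in the male null, 277.3 in the female null, 329 in the female control and 329.6 in the male control, a difference of −0.39 (SE 0.19). The hexokinase gene Hk1 was at 0.44 (SE 0.26), but its values of 17.8 to 33.5 did not exceed the gauge of background. The largest difference of the list, singled out after its values were seen, was that of the glucose-6-phosphatase gene G6pc at 0.55 (SE 0.34), with 0.09 among males and 1.02 among females. Of the genes for other sugar transporters, 7 of 9 on the array were bright enough to test, and 0 passed in limma (0 at an unadjusted p under 0.05), with a median of −0.11. Slc5a9 was at −0.42 (SE 0.24), at values of 18.8 to 38.6 around the gauge. Slc2a10 was at 0.55 (SE 0.40), with 1.36 among males and −0.25 among females. Its value of 14.9 in the male control was below the gauge. Slc2a1, encoding the GLUT1 carrier found in most tissues, read 66.2 to 72.8 on all 4 arrays.

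Other glycosidases had a median of −0.23 over 5 genes tested of 6 on the array, with 4 of them below 0. In limma 0 passed, and 1 had an unadjusted p under 0.05 (3.03% of all probe sets). The endoplasmic reticulum glucosidase subunit Ganab was at −0.52 (SE 0.21) and the lysosomal galactosidase Glb1 at −0.33 (SE 0.23). The sodium pump keeps the sodium gradient that drives SGLT1. Its list had 4 genes on the array with 2 above 0, 2 below 0 and 0 past the threshold in limma. At an unadjusted p under 0.05 in limma there was 1 (3.03% of all probe sets). The β1 subunit gene Atp1b1 was at −0.09 (SE 0.13), and the pump regulators Fxyd3 and Fxyd2 at 0.83 (SE 0.27) and 0.39 (SE 0.31). Fxyd3 read 338 and 241 in the male and female null, 138 and 177 in the female and male control. Both null arrays were thus above both controls (13.5% of all probe sets).

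Sugar-responsive regulators had a median of 0.07 over 5 genes tested, 3 above 0 and 2 below 0, and 0 passed in limma (0 at an unadjusted p under 0.05). Mlx, the dimer partner of the carbohydrate response factor ChREBP, was at −0.39 (SE 0.21) and the taste channel gene Trpm5 at 0.29 (SE 0.26), and the sweet taste receptor genes Tas1r2 and Tas1r3 were too dim to test. Mlxipl, which encodes ChREBP, read 175 and 159.7 in the male and female null and 199 and 202 in the female and male control. Of transcription factors known to act on sugar digestion genes, 8 were tested, with 5 above 0, 3 below 0, a median of 0.05 and 0 past the threshold in limma (0 at an unadjusted p under 0.05). Gata6 was at −0.29 (SE 0.23) and Hnf4a, described above, at 0.23 (SE 0.22). Cdx2 was at 0.05 (SE 0.25), Gata4 at 0.04 (SE 0.23) and Hnf4g, the paralogue of Hnf4a, at 0.16 (SE 0.21).

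**Figure D4:**
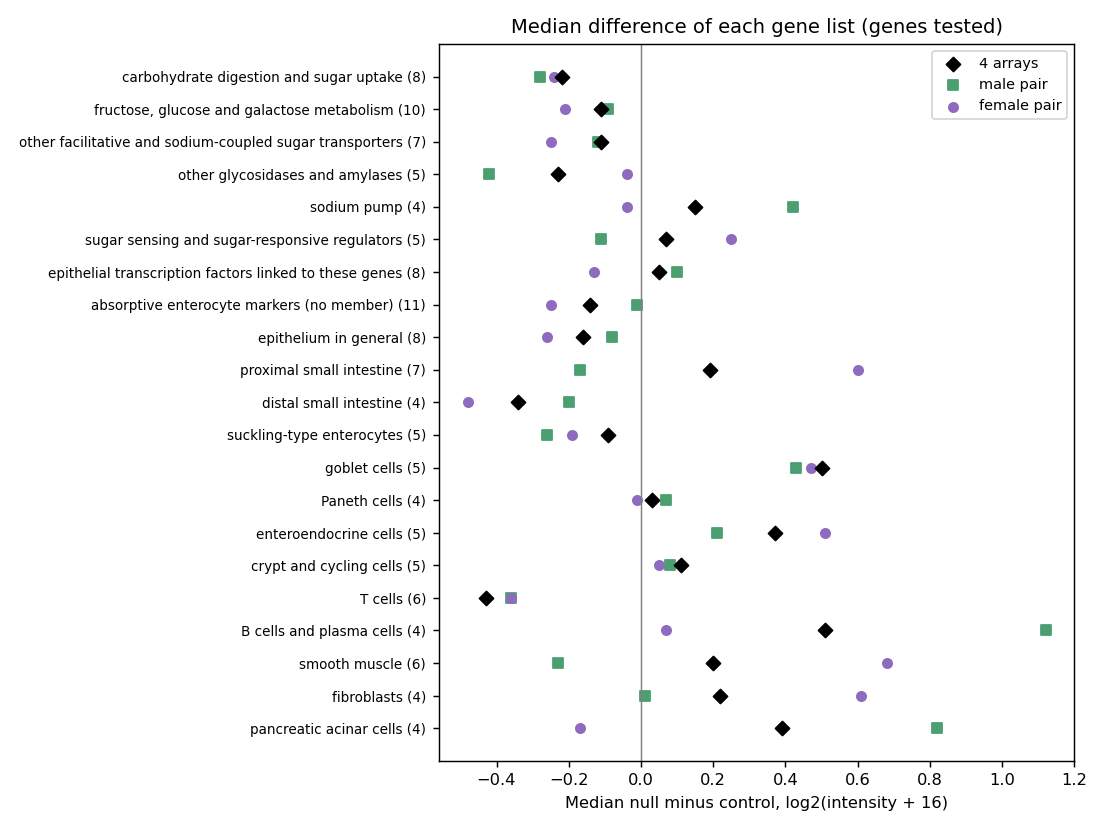
Median null minus control difference, log2(intensity + 16), of each gene list with at least 4 genes tested (number in brackets), using the brightest probe set per gene: black diamonds 4 arrays, green squares the male pair, purple circles the female pair. The sugar genes have −0.22 over 8 genes, and −0.28 and −0.24 in the male and female pairs. Some other lists also have similar medians in both pairs, such as goblet cells (0.43 and 0.47) and T cells (−0.36 and −0.36). Lists with opposite signs in the male and female pairs include smooth muscle (−0.23 and 0.68), pancreatic acinar genes (0.82 and −0.17), sodium pump (0.42 and −0.04) and sugar-responsive regulators (−0.11 and 0.25).

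**Figure D5:**
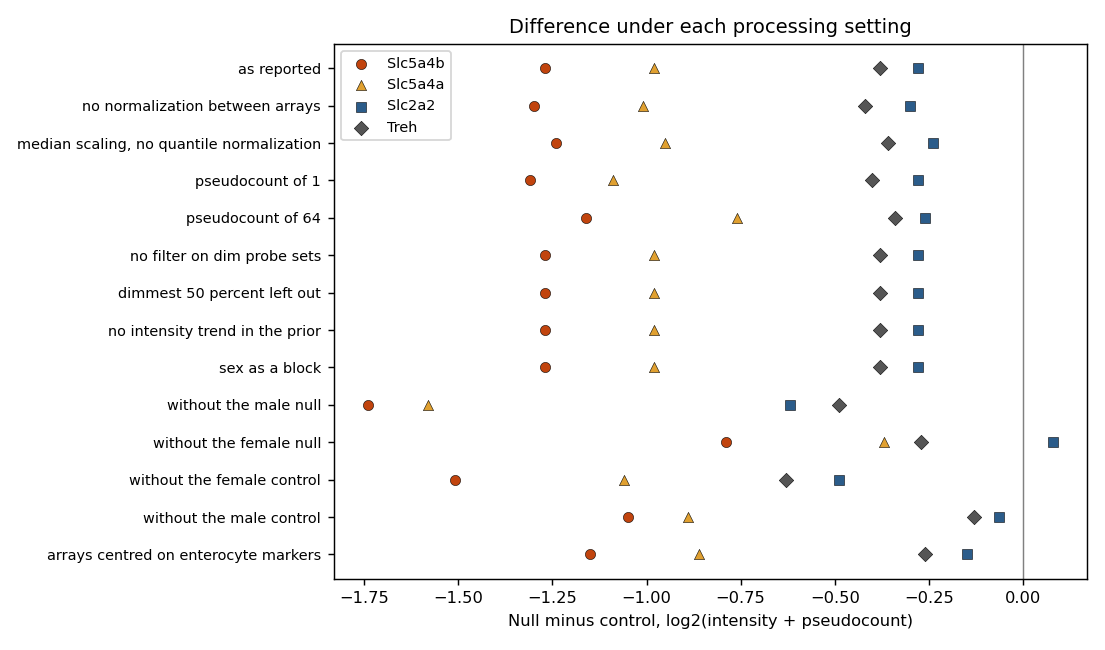
Difference of Slc5a4b, Slc5a4a, Treh and Slc2a2 (horizontal, log2 of intensity plus pseudocount) under each processing setting and with each array left out (rows). Slc5a4b stays between −1.74 and −0.79 and Slc5a4a between −1.58 and −0.37, and Slc2a2 reaches 0.080 without the female null.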

How the data were processed

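The deposited values are linear intensities, 1 for each probe set on each array. How the authors summarised, background-corrected or scaled these intensities is not given in the sources used. Gene names come from the platform annotation. Arrays were quantile normalized, negative values became 0, and log2(intensity + 16) was taken. The dimmest 30% by mean were dropped, leaving 15838 of 22626 probe sets (64 control probe sets excluded). The 2 null arrays were compared with the 2 controls by limma 3.58.1 in R 4.3.3 (lmFit and eBayes with an intensity trend, 2 residual degrees of freedom, two-sided, Benjamini-Hochberg over all probe sets tested, threshold 0.05), tested on simulated data. The prior, taken from all probe sets tested, added 4.65 degrees of freedom to the variance of each. Differences understate the change of dim probe sets, and the number of arrays limits the precision. All member probe sets are described. Of each other list the 2 genes with the smallest p are named, and any gene of a list of 5 or fewer may be. Slc2a1, Mlxipl, Cdx2, Gata4, Hnf4g, G6pc, Apoa4, Fcgbp and Acta2 were named besides, after their values were seen. Members and lists were chosen with earlier results of these data known. Alternatives covered normalization, pseudocount, filter, prior, sex as a block and each array left out.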

Additional observations from a re-analysis of the deposited data

Results flagged for a closer look

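For 3 of the 9 probe sets the male pair and the female pair moved in opposite directions, null minus control on the log2 scale. Slc2a5 had −0.14 in the males and 0.13 in the females, Khk −0.40 and 0.37, and Slc5a1 on probe set 1455431_at 0.24 and −0.13. The difference between the sexes was not tested, since each pair is 1 animal against 1. Opposite signs were found for 51.6% of all probe sets tested.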

How the results depend on the processing

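The count of probe sets called was 2 as reported, 1 without an intensity trend in the prior, 29 with sex as a block and from 0 (without the male control, where 205 had an unadjusted p under 0.05 in limma) to 35 (without the male null) with single arrays left out. Slc5a4b was called with sex as a block only (adjusted p 0.0212 in limma), and no other member was called under any of the 13 alternatives. The member median kept its sign, from −0.29 to −0.064 with single arrays left out. Slc5a4b, Slc5a4a, Treh and Slc5a1 on 1419057_at kept their sign under all 13. Median scaling put Slc2a5 at 0.014 and Khk at 0.001, and centring on enterocyte markers put Slc2a5 at 0.12, Lct at 0.009 and Khk at 0.11. With single arrays left out Slc2a5 ran from −0.089 to 0.081, Khk from −0.29 to 0.25, Lct from −0.25 to 0.022, Slc2a2 from −0.62 to 0.080 and Slc5a1 on 1455431_at from −0.14 to 0.26. None of the values with a changed sign was called, and the cause was not tested. The groups share no replicate number, and the only pairing available was by sex, 1 null and 1 control each, which is the fit with sex as a block above. In fits with 3 arrays, the lone array of a group is assumed to vary like the other group.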

Other observations

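Position along the gut and maturity of the enterocytes bear on where sugar genes are expressed, and their marker lists are given as values. Of 7 genes of the proximal small intestine, 5 were above 0 and 2 below 0, with a median of 0.19 (−0.17 among males and 0.60 among females), the hormone genes Ghrl at 1.70 (SE 0.38) and Cck at 0.71 (SE 0.26) having the smallest p. The values of Ghrl in the female and male controls, 6.57 and 27.7, were below the gauge of background. Of 4 distal genes tested all were below 0, with a median of −0.34, Nts at −1.61 (SE 0.33), whose value of 32.4 in the male null was below the gauge, and Osr2 at −0.57 (SE 0.21). Of 5 genes of suckling-type enterocytes tested, 2 were above 0 and 3 below 0, with a median of −0.09. The endocytic receptor genes Cubn at −1.35 (SE 0.24) and Amn at −0.52 (SE 0.18) had the smallest p. The rest of that list lay between −0.09 and 0.09. The arginase gene Arg2, of adult-type enterocytes, read 1786 and 911 in the male and female null and 1473 and 1989 in the female and male control, a difference of −0.40 (SE 0.30). None of these genes passed the adjusted threshold in limma, and 6 of the 17 tested had an unadjusted p under 0.05 (3.03% of all probe sets). These marker lists were written with earlier results of these data known. The part of position or maturity in the values of the sugar genes was not tested.

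Other cells of the intestine gave further values. After quantile normalization all 5 goblet cell genes were higher in both null arrays than in both controls (13.5% of all probe sets), though the deposited values of Fcgbp overlapped (2293 in the female null and 2429 in the male control), with a median of 0.50, Spink4 at 0.60 (SE 0.13) and Agr2 at 0.62 (SE 0.14). All 6 T cell genes tested were below 0, with a median of −0.43, Cd7 at −0.84 (SE 0.22) and Gzma at −0.61 (SE 0.27). Medians were 0.03 over 4 Paneth cell genes, where Pla2g2a at −3.63 (SE 0.26) passed the threshold and Mmp7 was at 1.22 (SE 0.21), and 0.37 over 5 enteroendocrine genes. Medians were 0.11 over 5 crypt and cycling genes, with Pcna at 0.12 (SE 0.14) and Mki67 at −0.25 (SE 0.30), and 0.39 over 4 pancreatic acinar genes, with Cela3b at 0.48 (SE 0.23) and Cpa1 at 0.47 (SE 0.31). The 4 B cell genes had a median of 0.51, which was 1.12 among males and 0.07 among females, with Ms4a1 at 0.81 (SE 0.70) and Cd79b at 0.70 (SE 0.68). Both read lowest in the male control, at 23.6 and 28.5, below the gauge of background.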
